A study of Homo sapiens with 4 samples.

Results

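The genes described here are 9 regulators and receptors of the melanocyte lineage: the transcription factor genes MITF, SOX10, PAX3, TFAP2A, SOX9 and SOX5, the receptor genes EDNRB and MC1R, and the membrane protein gene GPM6B. They were chosen by name, as all probe sets that the platform annotation assigns to one of them, which gave 26 of 54613 probe sets and 9 of 19775 named genes. No probe set named a member together with another gene. The RNA came from M14, an established human melanoma cell line. All cells carried a stably integrated pIRES2-eGFP plasmid, were selected with G418 and sorted for green fluorescence; in the line called the vector line here the plasmid was empty, and in the other, named ARHGAP8 after its label, it held FLAG-tagged ARHGAP8 in the form without exon 5. Each line was grown for 4 days in medium with 10% fetal bovine serum, either on plastic coated with type I collagen and harvested before confluence (2D) or embedded in growth factor-reduced Matrigel, a mouse basement membrane gel (3D). Each of the 4 combinations had 1 array, and each plasmid 1 stable line, so an effect of the insert cannot be told apart from other differences between separately selected lines. The cultures differ in matrix as well as in dimension, and these cannot be told apart. In bulk RNA, fewer cells expressing a gene and less RNA per cell cannot be told apart either.

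In the neural crest, PAX3, SOX10 and TFAP2A act before the melanocyte fate is set, and PAX3 and SOX10 together activate MITF, a basic helix-loop-helix leucine zipper factor. MITF then drives the genes of pigment synthesis, melanosomes and survival, by binding E-box sequences in their promoters. Signals from outside reach this circuit through EDNRB, the receptor for endothelins, and through MC1R, the melanocortin receptor, which raises cAMP and acts on MITF through a cAMP response element in its melanocyte promoter.

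Values are MAS5 signals, a linear measure of the brightness of a probe set, scaled to a common trimmed mean. A signal below 72.3, the median of all probe sets other than controls, was treated as not measured and set to that floor before log2 was taken, so where 1 of a pair of signals was floored the ratio gives only a minimum. Signals of different probe sets were ranked only to pick the one that represents a gene and the genes of highest signal to name. They were not otherwise compared with each other. Melanocyte identity could be read from TYR, at 520 to 1284 on the 4 arrays, MLANA, at 489 to 1814, and S100B, at 1122 to 1336. PMEL, another melanocyte marker, stood at 4.78 to 15.6, below the floor on every array. Among markers of other cell types, KRT5, KRT14, EPCAM, CDH1, VWF, CDH5, PTPRC and CD3E were below the floor on every array. Genes of those lists passed the floor on 1 or more arrays in part: 4 of 7 for fibroblasts, 2 of 5 each for keratinocytes, simple epithelium and endothelium, and 0 of 3 for leukocytes. KRT18, a keratin gene of simple epithelium, was the one that passed a test, and it fell in 3D. It read 729 and 944 in 2D and 313 and 458 in 3D (vector line, then ARHGAP8 line). Of the others above the floor, KRT10 of the keratinocyte list read 582 to 1201 on the 4 arrays. PECAM1 of the endothelium list read 268 to 343 and COL1A1 of the fibroblast list 179 to 253. ARHGAP8 had 4 probe sets, all annotated to another gene as well, with signals of 4.02 to 14.8, so they did not check the labels. On the ARHGAP8 3D array the 18S ribosomal RNA controls had a median of 626, against 27.7 to 49.4 on the other 3. For ACTB, signal at the 3' end over that at the 5' end, a measure of RNA integrity, was 1.05 to 1.10 in 2D and 1.23 to 1.32 in 3D. For GAPDH the same ratio differed less between the cultures, at 0.874 and 0.899 in 2D and 0.901 and 0.925 in 3D. These values stand beside every result on the ARHGAP8 3D array and on the culture, and their part in the results was not tested.

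Promoter sequence was at hand for 7 of the 9 genes, in 12 windows of 250 bases directly upstream of an annotated start site (RefSeq, build GRCh38.p14). The 4 windows below are shown because they hold letters recognised by MITF, by factors that respond to cAMP, or by AP-2 proteins such as the TFAP2A product. The other EDNRB window, not shown, holds 1 AP-2 palindrome, 190 bases before its start. Capitals mark matches, on either strand, to CATGTG (an E-box core bound by MITF), CACGTG (a second E-box), TGACGTCA (the full cAMP response element), ACAAAG and ACAATG (letters bound by SOX proteins), and GCCNNNGGC (the AP-2 palindrome). The MITF window belongs to the most downstream of its 3 listed starts.
MITF, chr3:69936342-69936591, plus strand: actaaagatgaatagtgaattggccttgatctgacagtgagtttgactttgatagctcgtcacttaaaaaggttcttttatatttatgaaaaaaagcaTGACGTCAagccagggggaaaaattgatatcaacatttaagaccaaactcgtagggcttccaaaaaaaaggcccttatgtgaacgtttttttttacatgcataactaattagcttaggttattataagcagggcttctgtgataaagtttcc
MC1R, chr16:89918612-89918861, plus strand: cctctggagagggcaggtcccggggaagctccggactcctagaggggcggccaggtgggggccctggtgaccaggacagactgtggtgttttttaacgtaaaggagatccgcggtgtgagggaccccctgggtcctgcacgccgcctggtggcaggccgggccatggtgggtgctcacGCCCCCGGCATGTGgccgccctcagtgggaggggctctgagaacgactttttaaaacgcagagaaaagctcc
EDNRB, chr13:77919683-77919932, minus strand: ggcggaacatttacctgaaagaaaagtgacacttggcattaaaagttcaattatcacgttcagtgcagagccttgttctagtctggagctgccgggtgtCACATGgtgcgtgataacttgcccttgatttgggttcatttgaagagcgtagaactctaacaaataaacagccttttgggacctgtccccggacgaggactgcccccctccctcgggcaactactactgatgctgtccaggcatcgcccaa
GPM6B, chrX:13938639-13938888, minus strand: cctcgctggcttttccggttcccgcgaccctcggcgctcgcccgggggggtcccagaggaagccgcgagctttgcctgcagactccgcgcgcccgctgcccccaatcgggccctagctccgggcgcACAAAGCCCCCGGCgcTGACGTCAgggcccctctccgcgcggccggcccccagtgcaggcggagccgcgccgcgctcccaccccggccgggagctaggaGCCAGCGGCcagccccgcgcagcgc
The capitals in the MITF window are a single cAMP response element, which begins 152 bases before the start site. GPM6B holds the same letters 108 bases before its start, as do 1.65% of all 35116 windows of this length. The MITF E-box core was found in the MC1R window, 64 bases before the start and overlapping an AP-2 palindrome, and on the opposite strand in the EDNRB window, 151 bases before the start; 9.42% of all windows hold it. GPM6B also has the first of the SOX motifs, present in 13.7% of windows, overlapping 1 of its 2 AP-2 palindromes, a motif in 19.8% of windows. The second E-box, in 6.34% of all windows, was in none of the 12. The second SOX motif, in 9.29%, was in none of those printed. Among windows not shown, it lies 214 bases before 1 MITF start and 180 and 138 bases before the SOX5 start. The first SOX motif lies 189 bases before another MITF start. These matches describe letters in a window and show nothing about binding in these cells.

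Of the 26 probe sets, 18 were above the floor on all 4 arrays, 2 on 2 or 3 arrays and 6 on none. Each of the 9 genes had at least 1 probe set above the floor on all 4 arrays, and the one with the highest mean log2 signal represents the gene in the test. The 6 probe sets below the floor everywhere belonged to MITF (1), PAX3 (1), TFAP2A (1) and SOX5 (3), and say nothing about these genes.

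**Figure D1:**
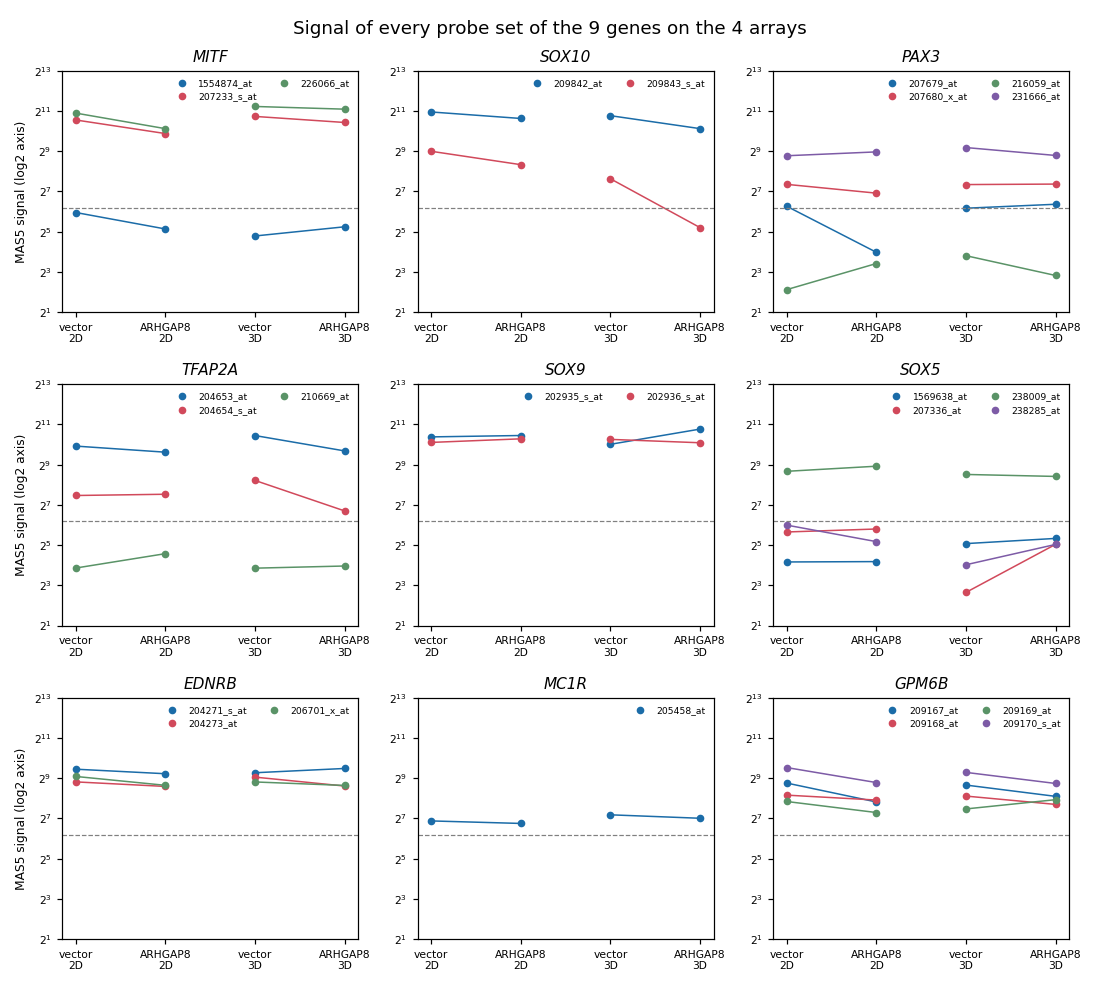
MAS5 signal (log2 axis) of the 26 probe sets of the 9 genes on the 4 arrays, 1 point per array, with lines joining the empty-vector and ARHGAP8 lines within a culture and a dashed line at the floor of 72.3. Both measured MITF probe sets are lowest on the ARHGAP8 2D array, and SOX10 209843_s_at drops below the floor on the ARHGAP8 3D array.

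MITF was the only one of the 9 genes that passed the test for culture, and its level was lowest on the ARHGAP8 2D array. Probe set 226066_at read 1904 and 1113 in 2D (vector line, then ARHGAP8 line), and 2393 and 2180 in 3D. The ARHGAP8 2D array thus stood below the other 3, and both 3D arrays stood above both 2D arrays. MITF rose in 3D by 0.65 ± 0.18 log2 (Benjamini-Hochberg adjusted p 0.0277 in limma). The ± is limma's moderated SE, which rests mostly on other genes of like signal. By line, the 3D to 2D ratio was 0.33 for the vector plasmid and 0.97 for ARHGAP8. Without the ARHGAP8 3D array, or without the ARHGAP8 2D array, the value is thus 0.33, with no test. The call is sensitive to the processing: over 9 alternatives MITF stayed higher in 3D by 0.34 to 0.66 log2, and limma's adjusted p ran from 0.0121 to 0.664, under the threshold in 4 of them. It was 0.0566 after quantile normalization.

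The other measured MITF probe set, 207233_s_at, was also lowest on the ARHGAP8 2D array and highest on the vector 3D array, but its ARHGAP8 3D signal lay below its vector 2D signal. It read 1502 and 940 in 2D (vector line, then ARHGAP8 line), and 1698 and 1378 in 3D. Its log2 difference between cultures was 0.36 ± 0.17 (moderated SE), which did not pass when each probe set was tested on its own (adjusted p 0.274 in limma). Between the lines, 226066_at was lower in the ARHGAP8 line by 1.71-fold in 2D and 1.10-fold in 3D, and 207233_s_at by 1.60-fold and 1.23-fold. Both probe sets thus had the larger difference in 2D. The difference of differences was 0.64 log2 for 226066_at, and 14.6% of genes above the floor on all arrays had one as large or larger. With 1 array per group it was not tested. Averaged over the cultures, the log2 difference of MITF between the lines was -0.45 ± 0.18, with an adjusted p of 0.437 in limma.

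SOX10, the HMG-box factor that maintains neural crest and melanocyte identity, was lower in the ARHGAP8 line in both cultures on both of its probe sets. Probe set 209842_at read 1979 and 1582 in 2D (vector line, then ARHGAP8 line), and 1741 and 1114 in 3D. The lowest signal was that of the ARHGAP8 3D array. In log2 the ratio between the lines was -0.32 in 2D and -0.64 in 3D, an average of -0.48 ± 0.16 (moderated SE) that did not pass (adjusted p 0.325 in limma). Between the cultures the average was -0.35 ± 0.16, which did not pass either (adjusted p 0.228 in limma).

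The second SOX10 probe set, 209843_s_at, differed more between the arrays. It read 510 and 322 in 2D (vector line, then ARHGAP8 line), and 198 and 36.7 in 3D, the last of them below the floor. Both 3D arrays were thus below both 2D arrays. It was 2.58-fold lower in 3D with the vector and at least 4.45-fold lower with ARHGAP8. In the fit that tested each probe set, it fell in 3D, with a log2 difference of -1.76 ± 0.26 (moderated SE, with the last signal at the floor; adjusted p 0.00133 in limma). Without the ARHGAP8 3D array the value is the ratio of the vector line, -1.37, with no test. It was the only member probe set of 20 tested that passed for culture, against 3.49% of all 28651 probe sets tested, 1.87% being lower. The ARHGAP8 line stood 1.59-fold below the vector line in 2D and at least 2.74-fold below it in 3D. The 2 SOX10 probe sets had the same direction in all 4 ratios and differed in size, and where each lies on the transcript was not analysed here.

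TFAP2A, which encodes an AP-2 factor of neural crest and melanocytes, was highest on the vector 3D array. Probe set 204653_at read 972 and 788 in 2D (vector line, then ARHGAP8 line), and 1398 and 823 in 3D. Its log2 ratio between the lines was -0.30 in 2D and -0.76 in 3D, on average -0.53 ± 0.16 (moderated SE; adjusted p 0.260 in limma). The culture difference was 0.29 ± 0.16. Probe set 204654_s_at read 177 and 185 in 2D and 298 and 104 in 3D. It thus showed almost no difference between the lines in 2D and was 2.86-fold lower in the ARHGAP8 line in 3D. Both probe sets had their highest signal on the vector 3D array, but in the ARHGAP8 line the ratio of 3D to 2D was 0.06 for the first and -0.83 for the second.

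PAX3, a paired-box factor that stands upstream of MITF, showed no common pattern over its probe sets. Probe set 231666_at read 438 and 500 in 2D (vector line, then ARHGAP8 line), and 580 and 442 in 3D. Probe set 207680_x_at read 163, 121, 162 and 165 in the same order, so its single low value was that of the ARHGAP8 2D array, where 231666_at was not low. Another, 207679_at, lay at or near the floor with signals of 15.7 to 82.2. For the gene, the log2 difference was -0.10 ± 0.18 between the lines and 0.12 ± 0.18 between the cultures (moderated SE).

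The SOX9 gene encodes an HMG-box factor related to SOX10, and its probe sets disagreed. Probe set 202935_s_at read 1335 and 1401 in 2D (vector line, then ARHGAP8 line), and 1034 and 1747 in 3D. That is 1.69-fold higher in the ARHGAP8 line in 3D, the array pair in which 202936_s_at was 1.12-fold lower. Probe set 202936_s_at read 1104 and 1249 in 2D and 1225 and 1091 in 3D. For the gene the average difference between the lines was 0.41 ± 0.17 log2 (moderated SE), which did not pass (adjusted p 0.504 in limma). In the fit of single probe sets it was 0.41 ± 0.18 for 202935_s_at and 0.01 ± 0.17 for 202936_s_at.

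SOX5, a SOX factor without a transactivation domain of its own, was measured by 1 of its 4 probe sets. Probe set 238009_at read 408 and 486 in 2D (vector line, then ARHGAP8 line), and 366 and 342 in 3D. Both 3D arrays lay below both 2D arrays, by an average of -0.33 ± 0.19 log2 (moderated SE) that did not pass (adjusted p 0.324 in limma).

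EDNRB, the endothelin receptor gene, varied little. Its 3 probe sets had ranges over the 4 arrays of 0.26, 0.46 and 0.45 log2. Probe set 204271_s_at read 698 and 597 in 2D (vector line, then ARHGAP8 line), and 618 and 716 in 3D. Probe sets 204273_at and 206701_x_at were lower in the ARHGAP8 line in both cultures, with log2 ratios of -0.23 (2D) and -0.44 (3D) for the first of these and -0.44 (2D) and -0.17 (3D) for the second. In the fit of single probe sets the average difference between the lines was -0.01 ± 0.18 for 204271_s_at and -0.33 ± 0.18 and -0.31 ± 0.18 for the others (moderated SE), and none of the 3 passed in limma (the lowest adjusted p was 0.769).

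MC1R, the melanocortin receptor gene, had 1 probe set, near the floor, with signals of 117 and 108 in 2D (vector line, then ARHGAP8 line) and 145 and 129 in 3D. The vector array was the higher one in each culture and the 3D array the higher one in each line. The log2 differences were -0.15 ± 0.25 between the lines and 0.28 ± 0.25 between the cultures (moderated SE), and neither passed in limma (adjusted p 0.964 and 0.565).

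GPM6B encodes a four-pass membrane protein of the proteolipid family that is found in neurons and glia. Of the 9 genes it had the lowest p for the difference between the lines. Probe set 209170_s_at read 739 and 441 in 2D (vector line, then ARHGAP8 line), and 626 and 427 in 3D. Both ARHGAP8 arrays lay below both vector arrays. The log2 ratio was -0.75 in 2D and -0.55 in 3D, on average -0.65 ± 0.17 (moderated SE; adjusted p 0.162 in limma). Probe set 209167_at, at 433 and 226 in 2D and 404 and 274 in 3D, likewise had both ARHGAP8 arrays below both vector arrays, and so did 209168_at, at 285 and 241 and then 276 and 207. Probe set 209169_at did not: it read 229 and 157 in 2D but 177 and 244 in 3D, higher in the ARHGAP8 line in 3D by 1.38-fold.

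**Figure D2:**
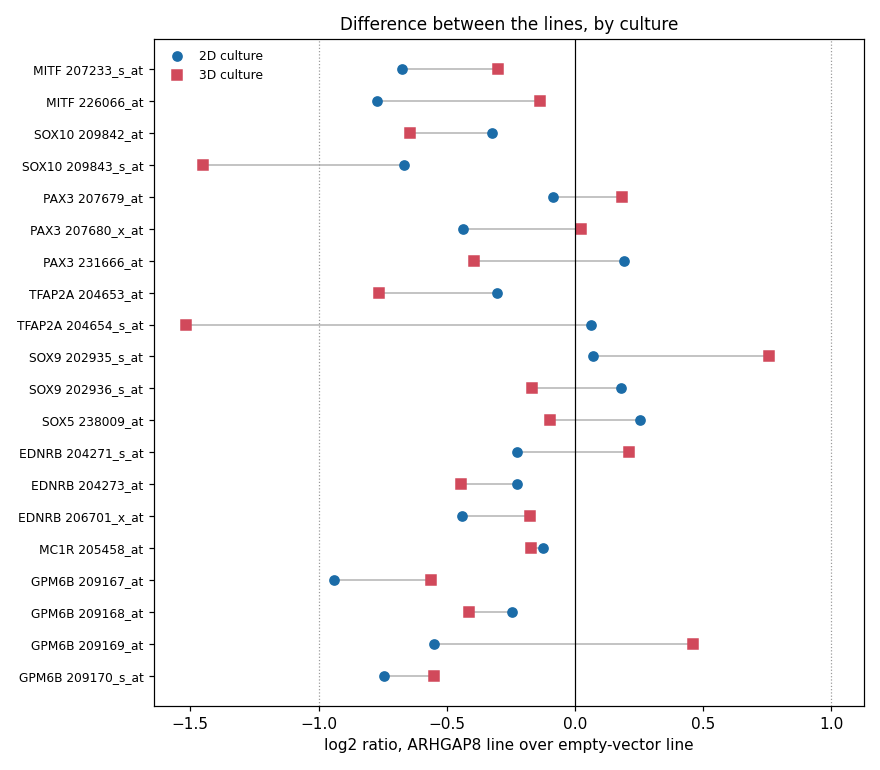
Log2 ratio of the ARHGAP8 line over the empty-vector line for the 20 tested probe sets, with circles for 2D and squares for 3D, a solid line at 0 and dotted lines at 2-fold. Points lie left of 0 in both cultures for 11 probe sets and right of 0 in both for 1; only SOX10 209843_s_at and TFAP2A 204654_s_at pass a dotted line, both in 3D.

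In the additive limma test of plasmid and culture, 0 of the 9 genes passed for the plasmid in either direction, against 0.128% of 13239 genes tested. At an unadjusted p under 0.05 there were 5 (GPM6B, TFAP2A, SOX10, MITF and SOX9), against 8.14% of all genes; of the 5, SOX9 was higher in the ARHGAP8 line and the other 4 lower. In the fit of single probe sets 0 of 20 passed for the plasmid, as did 0 of all 28651, of which 7.06% had an unadjusted p under 0.05. The ratio between the lines was below 0 in both cultures for 5 of 9 genes (MITF, SOX10, TFAP2A, MC1R and GPM6B) and 11 of 20 probe sets, against 26.2% of genes and 25.4% of probe sets tested. Median log2 ratios of the 9 genes were -0.23 in 2D and -0.17 in 3D, where those of all tested genes were -0.00090 and 0.0036. By size, 0 of the 9 genes differed at least 2-fold between the lines in 2D, where 0.461% of genes did, or in 3D, where 2.44% did. Among the probe sets 0 of 20 did so in 2D, against 0.492%, and 2 of 20 in 3D (SOX10 209843_s_at and TFAP2A 204654_s_at), against 2.98%, both on the ARHGAP8 3D array with its raised ribosomal RNA controls.

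For culture, 1 of the 9 genes passed, MITF, which rose, against 6.99% of all genes called in either direction and 2.83% that rose. With 9 genes, a single call is near that background. At an unadjusted p under 0.05 there were 2, MITF and SOX10, against 21.0% of all genes. Median log2 ratios of the 9 genes were -0.16 with the vector and 0.06 with ARHGAP8, where all genes had 0.012 and 0.037. MITF, TFAP2A and MC1R were higher in 3D in both lines, 3 of 9 genes against 34.1% of all, and SOX10, SOX5 and GPM6B were lower in both, 3 of 9 against 28.9%. By size, 0 of the 9 genes differed at least 2-fold in either line, against 3.02% of all genes for the vector and 3.77% for ARHGAP8. Among the probe sets 1 of 20 did in each line, SOX10 209843_s_at, against 3.06% and 4.1%. MITF in the ARHGAP8 line came closest, at 1.96-fold.

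**Figure D3:**
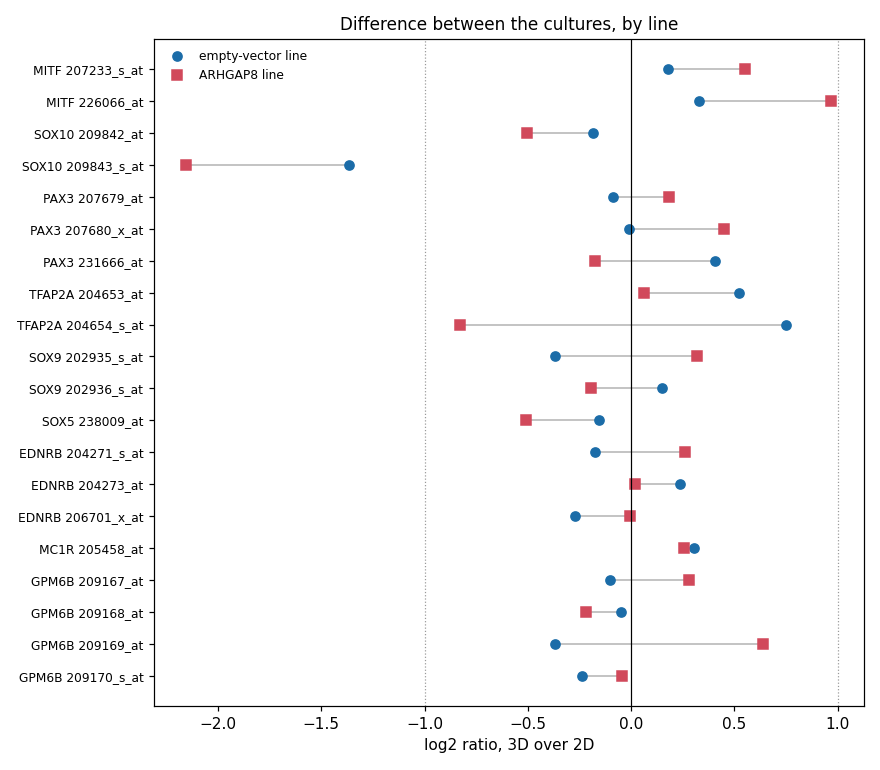
Log2 ratio of 3D over 2D for the 20 tested probe sets, with circles for the empty-vector line and squares for the ARHGAP8 line, a solid line at 0 and dotted lines at 2-fold. SOX10 209843_s_at lies beyond the 2-fold line in both lines, as a lower bound in the ARHGAP8 line, and MITF 226066_at lies just inside it in the ARHGAP8 line.

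Several known targets of MITF, among them pigment and survival genes, rose in 3D. Of 18 tested genes in a list of MITF pigment and survival targets, 8 rose in 3D and 0 fell, against 2.83% and 4.15% of all genes, and the list median was 0.51 log2 where that of all genes was 0.03. The list was chosen with earlier results of these data known. Culture calls depend on the processing: over all genes 375 rose, but 25 with the mean of probe sets and 0 without a filter. The list was not counted under those settings. BCL2A1, a survival gene of the BCL2 family, rose by 2.15 ± 0.18 log2 (moderated SE), the pigment enzyme gene TYRP1 by 1.47 ± 0.18 and the ion channel gene TRPM8 by 1.33 ± 0.20, each past the limma test. MLANA, which encodes a melanosomal antigen, rose by 1.01 ± 0.24, TYR, the rate-limiting enzyme of melanin synthesis, by 0.88 ± 0.18, the amino acid transporter gene SLC1A4 by 0.74 ± 0.17 and the melanosomal glycoprotein gene GPNMB by 0.71 ± 0.19. The eighth was MLPH, which encodes a melanosome transport protein, at 0.59 ± 0.18, close to the threshold (adjusted p 0.0495 in limma). For TRPM8 the other probe set, 220226_at, was higher in 3D by only 0.44 with the vector and 0.29 with ARHGAP8. For MLANA, TYR and MLPH the rise rests on the ARHGAP8 line. Without either of its arrays the values are 0.17, 0.45 and 0.20, with no test. In the ARHGAP8 line the ratios of 3D to 2D were 1.84, 1.30 and 0.99. The moderated SE rests mostly on other genes and gives this gap between the lines little weight. For SLC1A4 the value is 0.49 without either vector array. RAB27A, whose product carries melanosomes to the cell periphery, was at 0.02 on 210951_x_at and did not pass. Its probe sets 222294_s_at and 235766_x_at were higher in 3D, by 0.65 and 0.38 with the vector and 0.82 and 0.53 with ARHGAP8. Probe set 209515_s_at was at 0.02 and 0.03 (vector, then ARHGAP8), and 209514_s_at at -0.20 and 0.17.

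Several targets shared the low value of MITF on the ARHGAP8 2D array. MLANA read 1614 and 489 in 2D (vector line, then ARHGAP8 line), and 1814 and 1753 in 3D, so 1 array was low and the other 3 lay close together. TYR read 917 and 520 in 2D, and 1249 and 1284 in 3D. Its lowest array was the same one. In log2 the ratio between the lines was -1.72 in 2D and -0.05 in 3D for MLANA, and -0.82 and 0.04 for TYR, differences of differences that were not tested. The other MLANA probe set gave -1.68 and -0.10, and the other TYR probe sets gave -1.08 and -0.94 in 2D and -0.18 and -0.11 in 3D. Among the 17 list genes above the floor on all arrays, 11 had their lowest signal on the ARHGAP8 2D array, as did 25% of all such genes; this count was chosen after the pattern was seen.

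Between the lines the targets split. GPR143, a melanosomal receptor, read 396 and 108 in 2D (vector line, then ARHGAP8 line) and 443 and 204 in 3D, and fell by 1.49 log2 (adjusted p 0.00667 in limma). TYRP1 read 161 and 339 in 2D and 438 and 957 in 3D, and rose by 1.10 (adjusted p 0.0107 in limma). The other 16 did not pass for the plasmid, and the list median was -0.23. The plasmid calls rest on the processing: after quantile normalization limma made 0 plasmid calls over all genes.

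**Figure D4:**
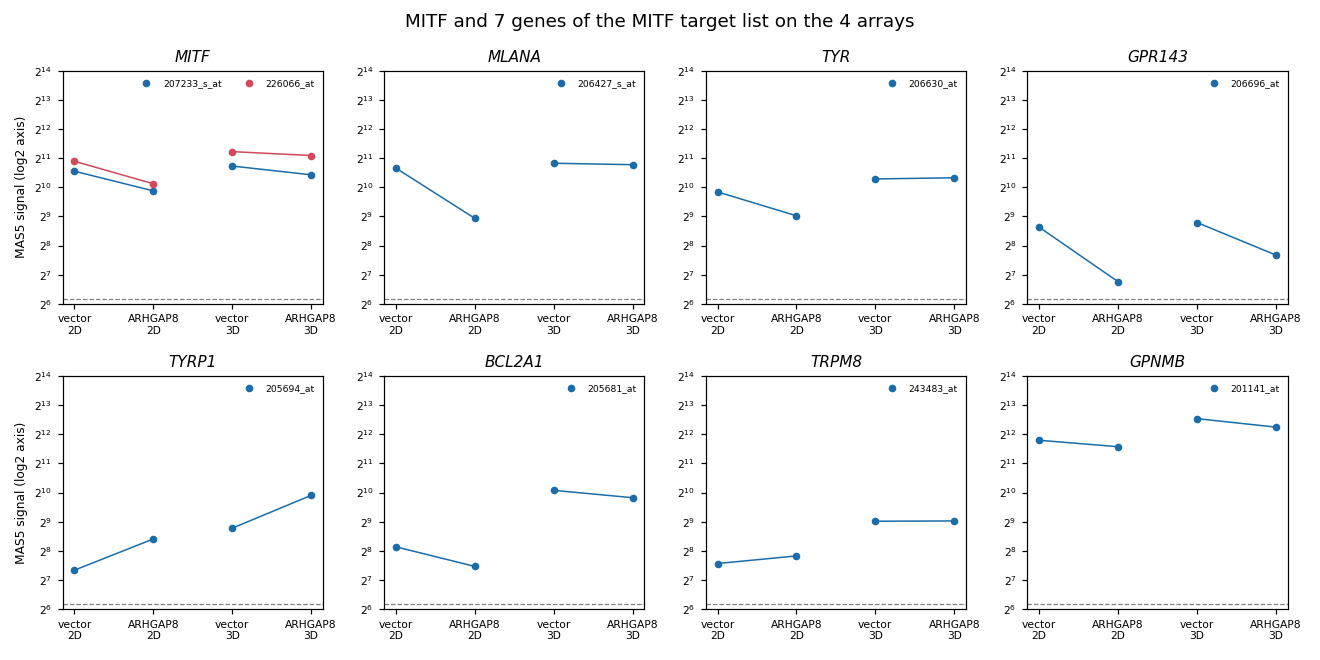
MAS5 signal (log2 axis) of MITF (its 2 measured probe sets) and of 7 genes of the MITF target list on the 4 arrays, 1 point per array, with lines joining the 2 lines within a culture and a dashed line at the floor of 72.3. MITF, MLANA, TYR, GPR143, BCL2A1 and GPNMB are lowest on the ARHGAP8 2D array, whereas TYRP1 is higher in the ARHGAP8 line in both cultures.

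Of 15 tested genes that control MITF or belong to its family, 2 rose and 1 fell in 3D, against 2.83% and 4.15% of all genes. In the ARHGAP8 line 1 rose and 0 fell, against 0.128% called in either direction. The list medians were 0.04 log2 for both terms. BHLHE40, a repressor induced by low oxygen, rose in 3D by 1.96 ± 0.18 log2 (moderated SE). CTNNB1, the beta-catenin gene, rose in 3D by 1.08 ± 0.18 and in the ARHGAP8 line by 0.98. Without the ARHGAP8 3D array these values are 0.71 and 0.61, with no test. Its probe set 223679_at was lower in the ARHGAP8 line, at -0.97 in 2D and -0.06 in 3D. FOXD3, a neural crest factor that represses MITF, fell in 3D by 0.93 ± 0.25, from 211 and 206 in 2D to 116 and 103 in 3D (vector line, then ARHGAP8 line), while its other probe sets were below the floor. LEF1, a partner of beta-catenin at the MITF promoter, differed by 0.09 between the cultures and ATF4 by 0.32, and neither passed. TFEC, a relative of MITF, was below the floor on every array.

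Of 16 tested neural crest regulators, 3 rose and 0 fell in 3D, against 2.83% and 4.15% of all genes, and 0 passed for the plasmid, against 0.128%. SNAI2, a zinc finger factor of neural crest migration, rose by 0.89 ± 0.16 log2 (moderated SE), from 1555 and 1354 in 2D to 2969 and 2435 in 3D. SOX4 rose by 1.15 ± 0.16 on its brightest probe set, while 201416_at, another of its probe sets, was at -0.38 with the vector and 0.75 with ARHGAP8. ETS1 rose by 0.56 ± 0.16 on 224833_at, and its 2 other probe sets were lower or nearly level, at 0.09 and -0.23 with the vector and -0.46 and -0.42 with ARHGAP8. TFAP2C, a relative of TFAP2A, was at 0.31 on 205286_at and did not pass. Its other probe set, 205287_s_at, was lower in 3D, at -0.28 with the vector and -0.29 with ARHGAP8.

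Another list held genes taken here as glial targets of SOX10, and proteolipid relatives. Whether SOX10 acts on them in these cells was not tested. Of its 11 tested genes 1 passed for culture and 0 for the plasmid, against 6.99% and 0.128% of all genes. That gene was SCD, a fatty acid desaturase gene also induced by sterol depletion, which rose by 1.91 ± 0.16 log2 (moderated SE). S100B, a calcium-binding protein of glia and melanocytes, was at -0.08 in 3D and the sialyltransferase gene ST3GAL6 at 0.17. NGFR and KIT were below the floor on every array.

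In the pathways of both receptors 1 of 21 and 1 of 8 genes passed for culture, against 6.99% of all genes. Of 21 tested genes of the MC1R and cAMP list, 1 rose in 3D, the orphan nuclear receptor gene NR4A2, by 1.38 ± 0.21 log2 (moderated SE), and 0 fell. Its other 2 probe sets were higher in 3D in both lines too. GNAS, which encodes the G protein subunit that couples MC1R to adenylyl cyclase, was at 0.21, PRKAR1A, a regulatory subunit of protein kinase A, at 0.51, and PRKACB, a catalytic subunit, at -0.34. Of 8 tested genes of the endothelin list 1 fell in 3D, GNA11, a G protein subunit gene, by 0.84 ± 0.17, and 0 rose; its relative GNAQ was at -0.05 and PLCB1, a phospholipase C gene, at 0.13. For the plasmid 0 genes of either list passed, against 0.128% of all genes.

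Likeness over the 4 arrays was measured as the Euclidean distance between mean-centred log2 values, over the 11200 other genes above the floor on all arrays, and is a description since 4 points are few. Nearest to MITF were GPRC5B, at a distance of 0.0377, PIR at 0.0988 and SREBF1 at 0.110. GPRC5B read 352 and 207 in 2D (vector line, then ARHGAP8 line), and 441 and 392 in 3D. Nearest to SOX10 were RNF167, GTF2I and NAV2, at 0.0330, 0.0364 and 0.0414, and nearest to TFAP2A were PPARA, SPATA20 and WDR45, at 0.0818, 0.0860 and 0.0860. Between members the closest pair was PAX3 and MC1R, at 0.319, followed by SOX10 and GPM6B, at 0.367. MITF and SOX10 were 1.11 apart, since MITF was higher and SOX10 lower in 3D.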

How the data were processed

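Total RNA of 4 M14 cultures was measured on 4 whole-genome arrays, after 2 rounds of in vitro transcription per the labels' protocols. MAS5 is the tool named in the submitters' processing notes, without a version, and the deposited values are linear signal intensities of each probe set. Their trimmed mean (2% cut from each end) was 150.0 on each array. Signals were floored at the median (72.3) and log2 was taken. Gene names came from the platform's annotation, brought up to date by gene identifier in 41037 of 41091 probe sets with 1 symbol; 1801 carry several and name no gene, and 11721 carry none. A gene is represented by its probe set with the highest mean log2 value.

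Genes above the floor on at least 2 arrays (13239) were fitted in limma 3.58.1 (R 4.3.3) with plasmid and culture as additive terms and eBayes with an intensity trend, two-sided, Benjamini-Hochberg over all genes, threshold 0.05. The error rests on 1 residual degree of freedom and mostly on genes of like signal, and the number of arrays limits the precision. That residual holds array noise and any difference of the culture effect between the lines. With 1 array per combination, neither the SE nor p measures variation between replicate cultures. A second fit tested 28651 probe sets. On simulated data for culture (13239 genes, 200 of them changed 4-fold, 5 draws) the fit recovered 100% of the changed genes. Of its calls 2.44% to 18.0% were false, so the error rate can exceed the nominal 5%. The draws held no array effect and no difference of the culture effect between the lines. Smaller changes were not simulated, so the recovery says nothing about a change as small as that of MITF. Alternatives changed the normalization, floor, filter, intensity trend or choice of probe set, or left out 1 array.

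Members and lists were chosen with earlier results of these data known. From each list the genes past the test (at most 6, largest change first) and the 3 of highest mean signal are named, and for the 3 members of largest range the 3 nearest genes; others named were chosen after their values were seen.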

Additional observations from a re-analysis of the deposited data

Results flagged for a closer look

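For TFAP2A 204654_s_at the log2 ratio between the lines was near 0 in 2D, at 0.06, and -1.52 in 3D, and the ratio of 3D to 2D was 0.75 with the vector and -0.83 with ARHGAP8. The difference, -1.58, was not tested. GPM6B 209169_at had opposite signs in the cultures, at -0.55 in 2D and 0.46 in 3D, a difference of 1.01 that was not tested. Outside the genes compared, the median signal of the 18S and 28S ribosomal RNA controls was 626 and 1390 on the ARHGAP8 3D array, against at most 49.4 and 119 on the others.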

How the results depend on the processing

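The count of members past the plasmid test was 0 under the main processing and all 9 alternatives. The culture count, 1 (MITF), was 0 after quantile normalization, without a filter, without the intensity trend and with the mean of probe sets. With 1 test per probe set it was 0 among the probe sets that represent the 9 genes. In that fit SOX10 209843_s_at, which does not represent its gene, did pass. The cause of these changes was not tested. Among those 9 processing settings EDNRB between the lines was the 1 value that changed sign, at 0.00025 after cyclic loess against -0.0065. With the mean of probe sets 1 gene, SOX10, was at least 2-fold apart between the lines in 3D and between the cultures in the ARHGAP8 line, against 0, since that mean takes in 209843_s_at. Over all genes 9 rose and 8 fell for the plasmid. These counts were 0 and 0 after quantile normalization (1003 genes at an unadjusted p under 0.05), without a filter (749), with the mean of probe sets (893) and per probe set (2024). They were 28 and 33 when only genes measured on all 4 arrays were fitted and 1 and 0 without the trend; 3 fell after cyclic loess and 4 without a floor. For culture, 375 rose and 550 fell; these counts were 0 and 0 without a filter (1876 at an unadjusted p under 0.05), 213 and 212 without the trend and 25 and 12 with the mean of probe sets, and 294 fell after quantile normalization. Without a filter many genes sit at the floor on all arrays with no variance. Leaving out 1 array leaves no residual degree of freedom, so those values carry no test; the value is then the ratio of the remaining pair. Signs then changed for PAX3 (0.19), SOX5 (-0.10) and EDNRB (0.21) between the lines and for PAX3 (-0.18), SOX9 (0.32) and EDNRB (-0.18) between the cultures, where none had passed. No paired analysis was possible because each group holds 1 array, beyond the additive fit, which already compares lines within cultures and cultures within lines.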
